A study of Homo sapiens with 6 samples.

Results

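Iron transport and storage genes were examined in Hep3B, an established human hepatocellular carcinoma cell line. The 10 genes are TF, TFRC, TFR2, FTH1, FTL, HAMP, HFE, SLC40A1, HP and HPX, picked by name and matched by symbol to 10 of the 23228 genes counted. Hep3B cells carrying a non-targeted shRNA served as controls (3 libraries), and Hep3B cells given a PELP1 shRNA made up the other group (3 libraries labelled PELP1-KD). Both groups received their shRNA by lentivirus and were cultured in RPMI, and the PELP1-KD cells were pooled stable clones chosen with puromycin. The sample titles point to the first PELP1 shRNA, while the protocol names both that the study used, and nothing in the labels says that the replicates were separate cultures, so a p-value here measures the spread between libraries, which may be technical.

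The liver makes proteins that carry, store and meter iron. Transferrin (TF) carries ferric iron in plasma, the transferrin receptor (TFRC) takes it into cells, and ferritin, a shell of heavy (FTH1) and light (FTL) chains, stores it. Ferroportin (SLC40A1) is the exporter of iron from cells, and hepcidin (HAMP), a liver peptide hormone, binds ferroportin and has it degraded. HFE, transferrin receptor 2 (TFR2) and hemojuvelin (HFE2) act on hepatocytes to adjust hepcidin to the iron supply. Haptoglobin (HP) and hemopexin (HPX) bind free hemoglobin and heme in plasma, and both are acute phase proteins.

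Iron regulatory proteins read cellular iron through a small RNA hairpin, the iron-responsive element. In the 5′ UTR of an mRNA the bound hairpin holds back translation, and in the 3′ UTR of TFRC mRNA it protects the message from decay. The exons of all genes were searched in hg19 for 29-base windows with the letters CNNNNNCAGAGN or CNNNNNCAGTGN from position 7, the last N not being G, on the transcribed strand. A match had to be able to pair 5 of 5 bases of the upper stem and at least 4 of 6 bases of the lower stem, counting G with T as a pair. Such a window was found in 56 of 23207 genes (0.241%) and in 4 of the 10 iron genes, with 5 windows in TFRC and 1 each in FTH1, FTL and SLC40A1. They are shown because the calls for these 4 genes differ below, and the capitals mark the 6-base loop. The pattern is that of the known element, so its share among the iron genes is a description and not a test. A match describes the letters and is not a measured binding site.
FTH1, 5′ UTR, chr11:61735046-61735074, minus strand: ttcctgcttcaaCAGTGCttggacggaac
FTL, 5′ UTR, chr19:49468592-49468620, plus strand: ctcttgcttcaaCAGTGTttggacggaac
SLC40A1, 5′ UTR, chr2:190445387-190445415, minus strand: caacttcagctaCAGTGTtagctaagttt
TFRC, 3′ UTR, chr3:195777900-195777928, minus strand: atttatcagtgaCAGAGTtcactataaat
TFRC, 3′ UTR, chr3:195777850-195777878, minus strand: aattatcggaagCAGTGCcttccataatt
TFRC, 3′ UTR, chr3:195777446-195777474, minus strand: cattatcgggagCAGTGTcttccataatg
TFRC, 3′ UTR, chr3:195777381-195777409, minus strand: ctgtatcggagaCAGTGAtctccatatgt
TFRC, 3′ UTR, chr3:195777334-195777362, minus strand: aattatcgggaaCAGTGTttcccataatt

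The control libraries held between 32945761 and 34456393 reads on genes and those labelled PELP1-KD between 26758180 and 31535747. PELP1 RNA in the libraries labelled PELP1-KD was 94.5% of the control level (log2 fold change −0.08, adjusted p = 0.101 by edgeR, 0.0106 with the replicate number as a block, 0.018 without replicate 3 of PELP1-KD, and up to 0.424 over the other alternatives), so the libraries are named by their labels and each direction below is that of the labels. Normalized PELP1 reads were 4893 to 5102 in control and 4421 to 4840 in the others, without overlap, as for 29.3% of all tested genes in the lower direction. By Western blot, the paper reports less PELP1 protein in its Hep3B knockdown cells, and protein was not measured in these libraries. All 7 hepatocyte markers fixed for this comparison were detected, summing to between 682729 and 698185 normalized reads in control and between 593720 and 611440 in the libraries labelled PELP1-KD. Of these, AFP (log2 fold change 0.62) and HNF4A (0.23) were higher, and ALB (−0.61), TTR (−0.61), SERPINA1 (−0.46), APOB (−0.46) and APOA1 (−0.13) were lower. The part that this shift in hepatocyte genes plays in the iron genes was not tested, and in bulk RNA fewer cells of a type and less RNA per cell cannot be told apart. Of 6 erythroid markers, 5, with HBB and ALAS2 among them, were at 0 in every library and HBA1 had at most 1 read, so the summed list held at most 1 read in a control library and 0 in the libraries labelled PELP1-KD. Of 6 macrophage markers, CD163, the haptoglobin-hemoglobin receptor, was at 0 in all libraries, and the summed list lay between 1462 and 1641 normalized reads in control and between 1952 and 2104 in the libraries labelled PELP1-KD, most of it CD68, a lysosomal protein gene that many cell types use. CD68 was higher (log2 fold change 0.48) and CD14, the only other macrophage marker tested, was lower (−0.98, adjusted p = 3.31e-06 by edgeR). The 5 endothelial markers summed to at most 76 reads in a library, with CDH5 and STAB2 at 0, and the 5 stellate or fibroblast markers to at most 265. Of the latter, PDGFRB was lower (−2.13) and COL1A1 higher (1.44), and the other 3 were not tested.

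To compare the groups, edgeR's quasi-likelihood test was run on all 14537 genes that passed its filter on low counts, the 10 iron genes among them, with Benjamini-Hochberg adjustment over all of them. At an adjusted p below 0.05, the libraries labelled PELP1-KD had less RNA of 5 iron genes (HP, HFE, TFR2, TF and SLC40A1), more of 1 (FTH1), and no call for 4 (TFRC, FTL, HPX and HAMP). Over all tested genes 26.8% were called lower and 26.8% higher, 53.6% in all. The 6 of 10 called among the iron genes is thus close to the background share, and the split into 5 lower and 1 higher is a description of these genes. All 6 calls also held at an adjusted p below 0.01, which 41.5% of all tested genes passed. No iron gene was called with at least a 2-fold change by edgeR or DESeq2, where 7.65% of all tested genes were (2.85% higher and 4.79% lower). The ranges of the groups did not overlap for 5 genes in the lower direction (29.3% of all tested genes) and for 1 in the higher direction (29.5%), 58.8% of all tested genes in both directions together. The median log2 fold change of the 10 genes was −0.16, against 0.0044 for all tested genes. Leaving out any 1 library ended the call of none of these 6 genes.

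**Figure D1:**
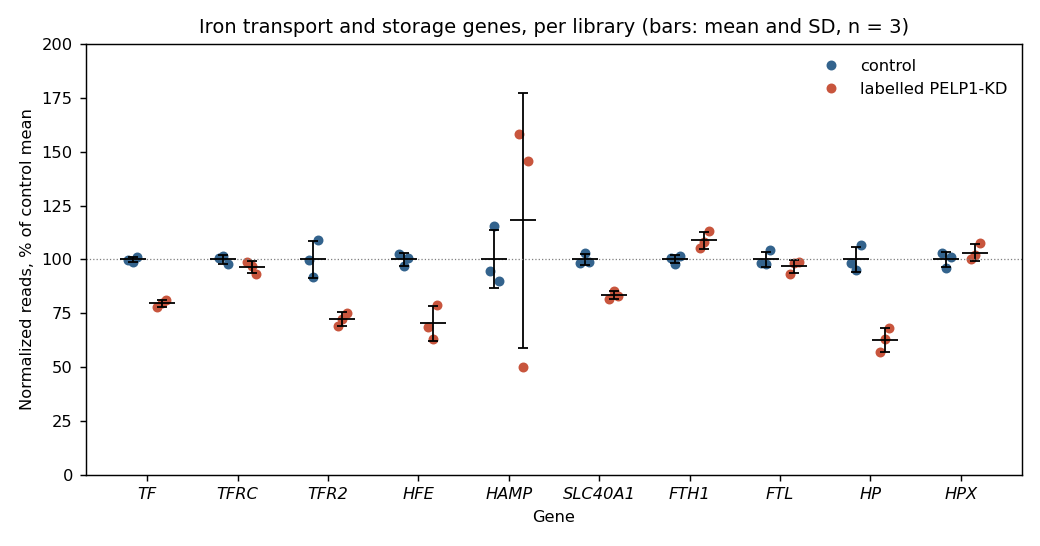
Normalized reads of the 10 iron genes in each library as a percent of the mean of the 3 control libraries, with 1 point per library and bars for the mean and SD of 3 libraries. TF, TFR2, HFE, SLC40A1 and HP lie below the control points in all 3 libraries labelled PELP1-KD, FTH1 lies above them, and HAMP, with 5 to 18 reads, is widely spread.

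TF, on chromosome 3 of hg19 from 133464977 to 133497850, had 111713, 110524 and 113261 normalized reads under control shRNA and 87353, 89033 and 90774 in those labelled PELP1-KD. Every library labelled PELP1-KD was thus below every control library. The group means were 111833 ± 1372 and 89053 ± 1710 (SD, n = 3 per group), and the log2 fold change was −0.33 (standard error, SE, 0.03, adjusted p = 2.75e-09 by edgeR), so the plasma iron carrier stood at 79.6% of its control level. TF took between 0.350% and 0.357% of all reads on genes in control and between 0.281% and 0.288% in the other group. The genes whose log2 CPM (reads per 1e6 reads) followed TF most closely over the 6 libraries were PPIB, AES and CTNND2, each with Pearson's r of about 0.9997 or more. With 2 groups of libraries such values are common, and 906 of the 6369 genes searched had an r above 0.95 with TF.

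The 2 transferrin receptors differed in level and in outcome. TFRC, on chromosome 3 from 195776155 to 195809032, had 18534, 18709 and 18005 normalized reads under control shRNA and 18187, 17892 and 17162 in libraries labelled PELP1-KD. The groups overlapped, and the log2 fold change was −0.05 (SE 0.03, 95% interval from −0.14 up to 0.04, adjusted p = 0.169 by edgeR). Treating the replicate number as a block, the same log2 fold change had an adjusted p of 0.0189 (range over the alternatives 0.0189 to 0.403), so the call for TFRC rests on whether libraries with the same number are treated as pairs. TFR2, which hepatocytes use to sense iron-loaded transferrin, lies on chromosome 7 from 100218039 to 100239173. It had 499, 459 and 546 normalized reads under control shRNA and 347, 363 and 378 in the others, with no overlap. TFR2 thus fell to 72.3% of control, a log2 fold change of −0.47 (SE 0.08, adjusted p = 4.74e-05 by edgeR).

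HFE, an MHC class I-like protein that binds TFRC and TFR2 and is altered in hereditary hemochromatosis, lies on chromosome 6 from 26087509 to 26095469. It had 210, 198 and 206 normalized reads in control and 140, 130 and 162 in libraries labelled PELP1-KD. All 3 of the latter were below the lowest control value, and the log2 fold change was −0.50 (SE 0.11, adjusted p = 0.00057 by edgeR). HAMP, on chromosome 19 from 35773410 to 35776045, was almost absent from these cells. It had 12, 14 and 11 reads under control shRNA and 18, 5 and 17 in the others, so the groups overlapped and a change was not detectable at this depth. The log2 fold change of 0.27 had a 95% interval from −0.83 to 1.37, with an adjusted p of 0.59 by edgeR. It was 0.60 without replicate 2 of PELP1-KD and 0.02 without replicate 1 of PELP1-KD, and was not called in any fit.

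The 250 bases before the start of HAMP are shown because its known inputs, BMP and IL6 signaling, are counted among the regulators below. The sequence is from RefSeq (GRCh38.p14, chr19:35282278-35282527, plus strand), and the capitals mark GGCGCC, the letters of the BMP-responsive element, at position −105 and TTCNNNGAA, a STAT motif, at position −93 from the start. The search covered both strands and the motifs do not overlap each other. GGCGCC occurs in 16.4% and TTCNNNGAA in 6.57% of the 35116 promoter windows of this length. Of the 7 iron genes with a promoter in that table, HAMP alone held the STAT letters, and HAMP, TF and TFRC held GGCGCC. The starts of these windows, on GRCh38, were not matched to the exons counted on hg19. The TF window (chr3:133661748-133661997) may thus precede another start of TF than the one counted.
HAMP promoter: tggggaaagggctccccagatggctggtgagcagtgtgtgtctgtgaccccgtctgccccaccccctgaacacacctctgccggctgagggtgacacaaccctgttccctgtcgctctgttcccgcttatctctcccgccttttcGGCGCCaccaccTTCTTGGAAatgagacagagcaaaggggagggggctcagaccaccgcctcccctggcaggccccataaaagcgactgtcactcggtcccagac

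SLC40A1, the iron exporter, lies on chromosome 2 from 190425316 to 190445537. It had 3087, 3228 and 3108 normalized reads under control shRNA and 2567, 2680 and 2606 in those labelled PELP1-KD. The highest of the latter was below the lowest control value, and ferroportin RNA stood at 83.3% of control (log2 fold change −0.26, SE 0.04, adjusted p = 1.68e-05 by edgeR).

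The ferritin chains were the most abundant of the 10 iron transcripts, and FTH1 was called higher while FTL was not called. Together FTH1 and FTL took between 1.20% and 1.25% of all reads in control and between 1.23% and 1.30% in the libraries labelled PELP1-KD. FTH1, the chain with ferroxidase activity, on chromosome 11 from 61731757 to 61735132, had 196107, 190728 and 197483 normalized reads under control shRNA and 204635, 210797 and 220506 in the others. Each library labelled PELP1-KD was above each control library, with a log2 fold change of 0.12 (SE 0.03, adjusted p = 0.00133 by edgeR), or 108.8% of control. FTL, on chromosome 19 from 49468566 to 49470136, had 187861, 187139 and 199395 in control and 178537, 188111 and 189466 in the others. The groups overlapped, with a log2 fold change of −0.05 (SE 0.03, 95% interval from −0.13 up to 0.04, adjusted p = 0.205 by edgeR). FTL was called lower with the replicate number as a block (adjusted p = 0.0211) and without replicate 3 of PELP1-KD (log2 fold change −0.06, adjusted p = 0.0409), and its adjusted p ranged up to 0.742 over the alternatives.

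The difference between the chains was tested within each library, where scaling between libraries plays no part. The ratio of FTH1 to FTL reads per kilobase of exon was 0.740, 0.722 and 0.702 under control shRNA and 0.812, 0.794 and 0.825 in those labelled PELP1-KD. It was higher in all 3 of the latter, by 0.17 on the log2 scale (exact permutation test, two-sided, p = 0.1, which is the smallest that 3 against 3 libraries allow). The ratio of TFRC to FTH1, the uptake receptor against the storage chain, was 0.0219, 0.0228 and 0.0212 in control and 0.0206, 0.0197 and 0.0181 in the others. It was lower in all 3 libraries labelled PELP1-KD, a log2 difference of −0.18 (two-sided exact permutation test, p = 0.1, again the smallest possible). Both ferritin genes have processed copies elsewhere in the genome. The counting shared out ambiguous reads, and all 6 values of FTH1, of FTL and of TFRC were fractions before rounding. So were 5 values of TF, 2 of SLC40A1 and 1 each of TFR2, HP and HPX. HFE and HAMP, with far fewer reads, had whole values in all 6. A fraction shows that reads were shared out but not how many, so it does not rank the genes by certainty. Of the rows named as ferritin copies, FTH1P3 held between 8.19 and 18.3 normalized reads and FTLP10 held 0 reads in every library. FTH1 also shares 179 exon bases with BEST1 on the other strand, which had a mean of 37.3 and 53.0 normalized reads in control and in the libraries labelled PELP1-KD.

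**Figure D2:**
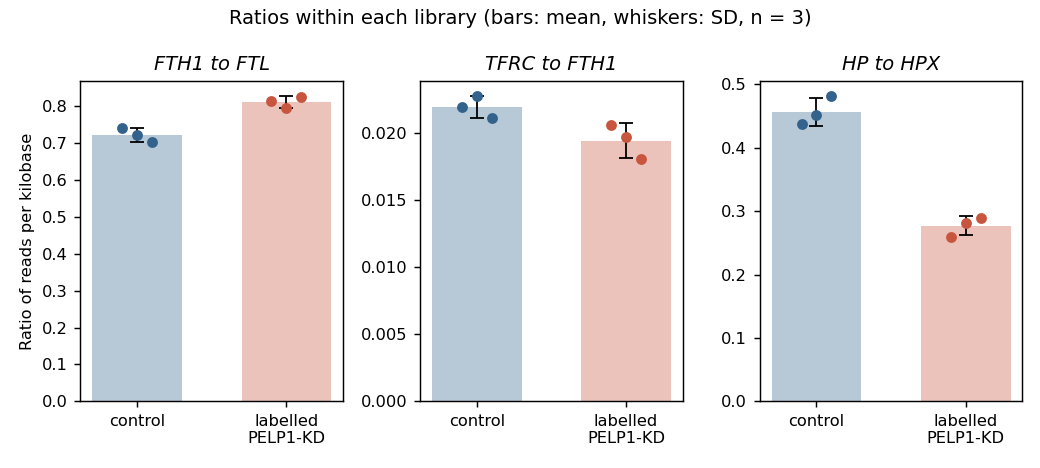
Ratios of reads per kilobase of exon within each library for FTH1 to FTL, TFRC to FTH1 and HP to HPX, with 1 point per library, bars for group means and whiskers for the SD of 3 libraries. The groups are apart in each panel, with FTH1 to FTL at 0.721 and 0.810, TFRC to FTH1 at 0.0220 and 0.0195 and HP to HPX at 0.456 and 0.277 in control and in the libraries labelled PELP1-KD.

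Of the scavengers of hemoglobin and heme, HP was called lower and HPX was not called. HP, on chromosome 16 from 72088508 to 72094955, had 1056, 1018 and 1143 normalized reads under control shRNA and 612, 674 and 731 in those labelled PELP1-KD. The groups lay well apart, and HP showed the largest fall of the 10 genes, to 62.7% of control (log2 fold change −0.67, SE 0.07, adjusted p = 5.53e-08 by edgeR). HPX, on chromosome 11 from 6452268 to 6462254, had 2743, 2561 and 2695 in control and 2672, 2715 and 2864 in the others. These overlapped, with a log2 fold change of 0.04 (SE 0.04, 95% interval from −0.08 up to 0.17, adjusted p = 0.403 by edgeR). The ratio of HP to HPX reads per kilobase was 0.437, 0.451 and 0.481 under control shRNA and 0.260, 0.282 and 0.290 in the others, a log2 difference of −0.72 (exact permutation test, two-sided, p = 0.1, which is the smallest possible). HPR, the haptoglobin-related gene next to HP, is nearly identical in sequence and may share reads with it. HPR was lower as well, with 284 ± 14.6 and 218 ± 12.6 normalized reads (SD, n = 3 per group), or −0.38 on the log2 scale (SE 0.09, adjusted p = 0.00122 by edgeR), and with HPR added to HP the log2 difference of the ratio to HPX was −0.65. The genes that followed HP most closely over the 6 libraries were PACSIN3, TOMM40L and MTA1 (Pearson's r of 0.9988 or more, where 817 of 6370 genes had an r above 0.95).

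Levels of different genes were compared as RPKM, reads per kilobase of exon and per 1e6 reads on genes. In control the order was FTL (6993 ± 251), FTH1 (5042 ± 92.4), TF (1275 ± 15.6), TFRC (111 ± 2.20), HPX (52.3 ± 1.85), SLC40A1 (29.8 ± 0.723), HP (23.8 ± 1.42), TFR2 (5.35 ± 0.462), HFE (2.93 ± 0.0840) and HAMP (0.869 ± 0.117 RPKM, SD, n = 3). The same order held in the libraries labelled PELP1-KD, from FTL at 6770 ± 218 to HAMP at 1.03 ± 0.515 RPKM (SD, n = 3), and in neither group did the ranges of neighbours in the order overlap. FTL had the highest RPKM of all genes counted in each of the 6 libraries, and FTH1 ranked between 3 and 5. TF ranked 25 or 26 under control shRNA and between 37 and 39 in the others.

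**Figure D3:**
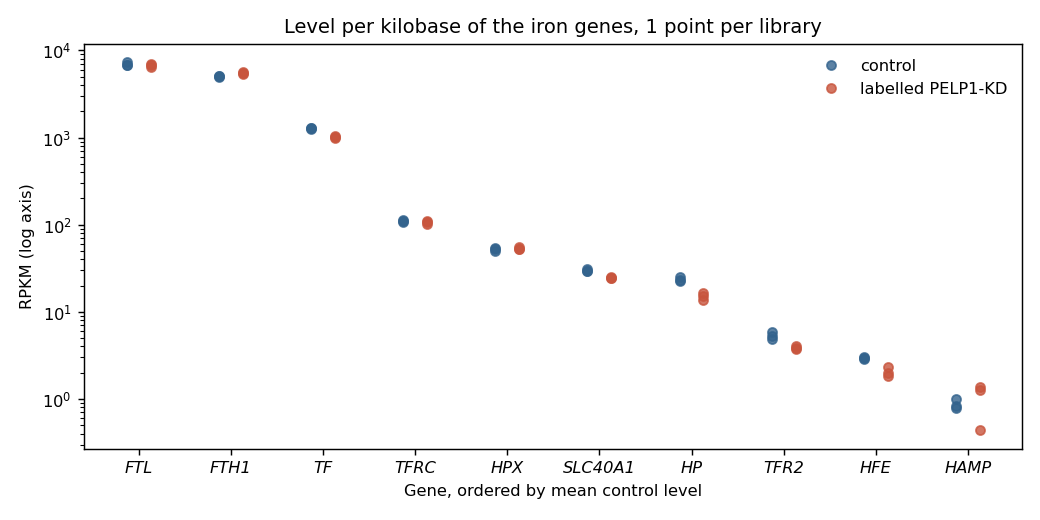
RPKM of the 10 iron genes on a log axis, with 1 point per library and genes ordered by their control mean. The order from FTL (6993 RPKM in control) to HAMP (0.869 RPKM) is the same in both groups.

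The wider iron and heme pathway was described with 6 lists of 86 genes, of which 79 were tested. Of these, 51 were called (33 higher and 18 lower), with a median log2 fold change of 0.05, or 64.6% of those tested beside the 53.6% called among all tested genes. Of the 79, 4 were called with at least a 2-fold change (HEPH, NEO1, ABCG2 and HFE2), beside 7.65% of all tested genes. Genes named from the lists without such a change were, apart from those with the smallest p of a list in each direction, chosen after their values were seen.

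Among 15 genes of iron uptake, reduction and oxidation, 11 were tested, of which 6 were higher and 3 lower. Among all tested genes 26.8% were called higher and 26.8% lower. HEPH, the ferroxidase hephaestin that works beside ferroportin in the gut, rose from 1104 ± 46.1 to 2854 ± 112 normalized reads (SD, n = 3 per group), or 1.37 on the log2 scale (SE 0.05, adjusted p = 7.26e-15 by edgeR). CP, the plasma ferroxidase ceruloplasmin, was lower at −0.15. The endosomal ferrireductase STEAP3, which works with transferrin uptake, was higher (log2 fold change 0.40), as were STEAP1 (0.58) and STEAP2 (0.50). LRP1, the receptor for heme-hemopexin, was higher at 0.52, and LCN2, which binds iron-carrying siderophores, was lower at −0.55. SLC11A2, the divalent metal transporter, and SLC39A14, a hepatocyte importer of free iron, were not called (0.05 and 0.06). SLC39A8, also in this list, was lower (−0.32, adjusted p = 5.11e-05 by edgeR), and MFI2 was higher (0.26).

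Of the 24 hepcidin regulators, 23 had a row and were tested. Of these, 10 were higher and 7 lower, beside 26.8% called in each direction among all tested genes. HFE2, which encodes hemojuvelin, a BMP co-receptor, had 90, 100 and 117 reads under control shRNA and 23, 13 and 10 in the others. The groups were far apart, with a log2 fold change of −2.56 (SE 0.24, adjusted p = 3.32e-08 by edgeR). NEO1, neogenin, a partner of hemojuvelin, rose from 429 ± 40.6 to 1474 ± 46.7 normalized reads (SD, n = 3 per group), or 1.78 on the log2 scale (adjusted p = 1.14e-14 by edgeR). TMPRSS6, the protease that cleaves hemojuvelin, was lower (−0.29), as were the BMP type I receptors ACVR1 (−0.41) and BMPR1A (−0.19), SMAD5 (−0.25) and ID1 (−0.31), a BMP target. The type II receptor BMPR2 (0.40) and the inhibitory SMAD7 (0.23) and SMAD6 (0.18) were higher. BMP6, the ligand that follows liver iron, had between 2 and 18 reads and was not called. With more reads, BMP2 (0.0017), SMAD1 (0.015), SMAD4 (0.048), ACVR2A (−0.031) and TWSG1 (−0.0050) were not called either. FURIN (0.19) was also called higher, and GDF15 (−0.38) was called lower. The other regulators called higher were IL6R (0.69), JAK2 (0.70), SOCS3 (0.27), STAT3 (0.18) and IL6ST (0.13), which act in IL6 signaling and were not a list of their own. For IL6ST the ranges of the groups overlapped.

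Of 9 genes for iron sensing and ferritin turnover, 3 were higher and 3 lower, beside 26.8% called in each direction among all tested genes. HIF1A (log2 fold change 0.35, adjusted p = 8.73e-08) and EPAS1 (0.27, adjusted p = 1.49e-07 by edgeR), the hypoxia-inducible factors, and NCOA4 (0.25), the receptor that carries ferritin to lysosomes, were higher. ACO1, which encodes iron regulatory protein 1, was lower (−0.21, adjusted p = 0.000369 by edgeR), and PCBP1, an iron chaperone for ferritin, was lower at −0.15. HERC2 was lower as well (−0.12, adjusted p = 0.0338 by edgeR), and PCBP2 was not called (−0.0063). IREB2, which encodes iron regulatory protein 2, had a log2 fold change of −0.03 and FBXL5, which marks it for degradation, of −0.07, and neither was called.

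In the mitochondrial list 19 of 20 genes were tested. Of these, 4 were higher and 4 lower, beside 26.8% called in each direction among all tested genes. The iron importer SLC25A37 was higher (0.31, adjusted p = 0.00427 by edgeR). Without 1 library, control replicate 1 or 2 or PELP1-KD replicate 2, the higher genes were 2, 1 and 2, and without control replicate 2 or PELP1-KD replicate 1 the lower genes were 2. Of 9 heme synthesis genes 8 were tested, and 4 were higher and 1 was lower, beside the same shares of all tested genes. CPOX was higher (0.38, adjusted p = 2.2e-07 by edgeR), as was ALAS1, the rate-limiting enzyme of liver heme synthesis (0.24), and PPOX was lower (−0.27, adjusted p = 0.0198 by edgeR). The higher heme synthesis genes were 2 without control replicate 2, PELP1-KD replicate 2 or PELP1-KD replicate 3, and the lower ones were 0 without control replicate 1 or PELP1-KD replicate 1, 2 without control replicate 3 and 3 without PELP1-KD replicate 3 or with the replicate number as a block.

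Of 9 genes of heme transport and breakdown, 6 were called higher and 0 lower by edgeR and by DESeq2, beside 26.8% higher and 26.8% lower among all tested genes. At an unadjusted p below 0.05, 0 of the 9 were lower by edgeR. ABCG2, an exporter of heme and drugs, rose from 940 ± 19.3 to 2052 ± 62.9 normalized reads (SD, n = 3 per group), or 1.13 on the log2 scale (SE 0.05, adjusted p = 1.55e-13 by edgeR). HMOX1, the inducible heme oxygenase that frees iron from heme, rose from 3050 ± 109 to 4853 ± 244 (SD, n = 3 per group), or 0.67 on the log2 scale (adjusted p = 1.09e-10 by edgeR). The biliverdin reductases BLVRA (0.42) and BLVRB (0.26), the transporter FLVCR2 (0.63) and SLC46A1 (0.25), a folate and heme carrier, were also higher. HMOX2, FLVCR1 and SLC48A1 were not called, at −0.0066, 0.06 and −0.13.

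**Figure D4:**
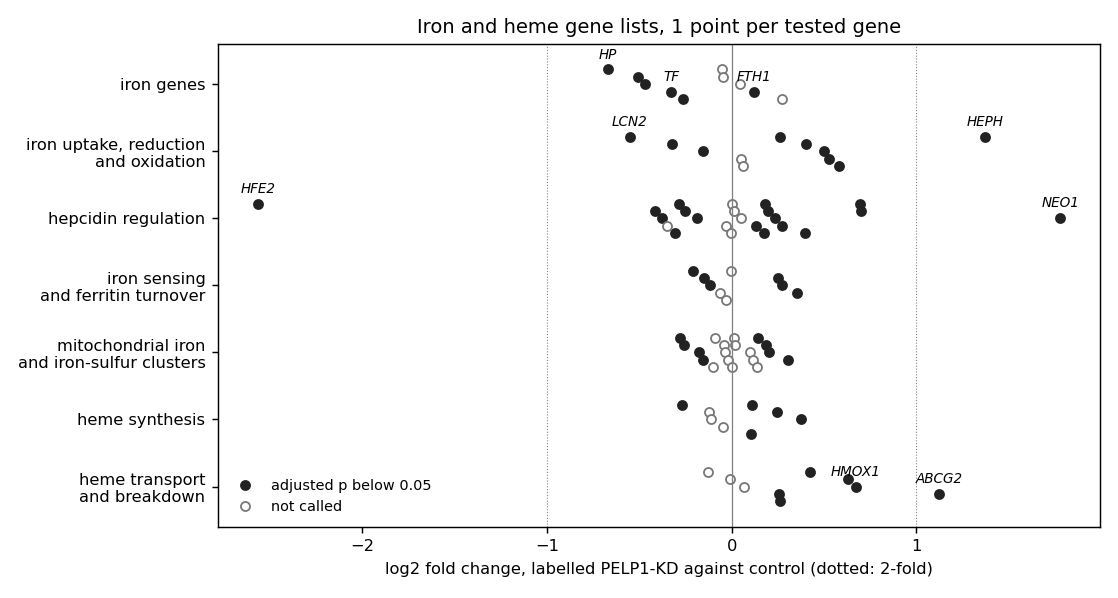
log2 fold changes of the tested genes of the 10 iron genes and of 6 iron and heme lists, with filled points for an adjusted p below 0.05 and dotted lines at a 2-fold change. HFE2 lies at −2.56, NEO1 at 1.78, HEPH at 1.37 and ABCG2 at 1.13, while all 10 iron genes lie within the 2-fold lines.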

How the data were processed

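RNA was sequenced from 3 control and 3 PELP1-KD libraries, grouped by the treatment label. Per the file headers, the authors counted reads with featureCounts 1.5.0-p1 on UCSC hg19 exons, by strand, at a minimum mapping quality of 2, and shared out reads with several matches as fractions. They deposited estimated counts per gene without normalization. The paper names TopHat2 and HTSeq, the submitters' processing notes HISAT2 and featureCounts. The labels conflict on mRNA selection or rRNA removal and on single or paired reads. Rounded counts were tested with edgeR 4.0.16 (TMM, filterByExpr, robust glmQLFit and glmQLFTest, R 4.3.3), at an adjusted p below 0.05. Intervals use 4 degrees of freedom. Normalized reads are reads over the TMM-scaled library size. The scripts were tested on simulated data. The test by edgeR is used although the paper names DESeq2 (1.42.0 here), which was an alternative. Other alternatives changed the scaling, the filter, the block and the libraries used. Same-numbered libraries deviated together over 6370 genes (r = 0.336, 0.247 and 0.666), each above the limit of 0.1 set for pairing, so the numbers were taken as pairs for the block. This was not specific to the numbers, since control 2 with PELP1-KD 1 had r = 0.418 and control 1 with PELP1-KD 2 had r = 0.244. Replicates of a group differed by more than sampling noise (chi-square per degree of freedom 1.94 to 7.02). Named genes are the 10 iron genes, PELP1, possible sharers of reads, the 3 genes most correlated with TF and with the member that changed most, and, per list, those called with a 2-fold change or else the smallest p in each direction (1 of these is not reported here). The members and lists were chosen with earlier results of these data known. UTRs come from GENCODE v44 lifted to hg19. There were 7 of 10 iron genes in the RefSeq promoter table.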

Additional observations from a re-analysis of the deposited data

How the results depend on the processing

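For the 10 iron genes, TF, TFR2, HFE, SLC40A1, HP and FTH1 kept their direction and their call, and HPX and HAMP stayed uncalled, under the scalings, the filters, DESeq2, the replicate block and each library left out (HAMP could not be fitted with at least 10 reads in every library). With the replicate block, TFRC (−0.054, adjusted p = 0.0189) and FTL (−0.047, adjusted p = 0.0211) were called lower. FTL was also called lower without replicate 3 of PELP1-KD, and lay between −0.063 and −0.013 with each library left out. The block changed no other call among the 10. With at least 10 reads in every library the median of the iron genes was −0.27, since HAMP was then left out. DESeq2 called 2 mitochondrial genes lower and 2 heme synthesis genes higher, and with the block 3 heme synthesis genes were lower. With each library left out, the mitochondrial list had between 1 and 5 genes higher and between 2 and 4 lower, and heme synthesis between 2 and 4 higher and between 0 and 3 lower. The 3 ratios kept their direction. The cause of these differences was not tested. Depth limits HAMP and BMP6, which had at most 18 reads.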
